A study of Mus musculus with 20 samples.

Results

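The secreted proteins that set the strength of Wnt signalling were followed across the stromal cells of mouse interscapular brown adipose tissue (iBAT). The set held 10 of the 31053 genes in the count tables, taken by symbol: the frizzled-related proteins Sfrp1, Sfrp2, Sfrp4 and Sfrp5, the Wnt inhibitory factor Wif1, the Dickkopf proteins Dkk2 and Dkk3, the R-spondins Rspo1 and Rspo3, and the ligand Wnt2. Wnt ligands bind Frizzled receptors together with LRP5 or LRP6 and stabilise β-catenin, and in adipose tissue this pathway is best known for holding precursors back from becoming adipocytes. Frizzled-related proteins and Wif1 bind Wnt ligands outside the cell, Dkk2 binds LRP5 and LRP6, Dkk3 is a divergent member of the Dickkopf family, and R-spondins act through LGR receptors to keep Frizzled receptors on the cell surface.

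Cells of the stromal vascular fraction had been split with magnetic beads into a lineage-negative (Lin-) and a lineage-positive (Lin+) fraction, and a single-cell RNA-seq library was made from each. C57BL/6J males stayed at 24 °C (RT), spent 4 days at 6 °C (COLD) or received the β3-adrenergic agonist CL316,243 at 0.75 nmol per hour over 4 days (CL), with 2 Lin- libraries per group. Females of an Adrb1 line all carried Adrb1 fl/fl and all received tamoxifen. They were Pdgfra-CreER -/- (WT) or Pdgfra-CreER +/- (KO, in which Adrb1 is deleted in Pdgfra-expressing cells) and were kept at RT or in the cold, with 1 Lin- library each. Mice were 8 to 14 weeks old, and each library pooled several animals, so that the pool is the replicate and error between animals is not measured. In the Adrb1 line the RT libraries came from version 3 of the capture kit and the COLD libraries from version 2, so kit and temperature cannot be told apart there.

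Over the 10 Lin- libraries, 66339 cells were kept, with 7.86e+06 to 3.13e+07 UMIs per library. RT replicate 2 stood apart, since only 27.96% of its barcodes passed the filters and 72.01% exceeded the mitochondrial limit. The Lin- and Lin+ libraries of CL replicate 2 shared 1098 barcodes (17.1% of the smaller library), whereas any pair of Lin- libraries shared at most 193. Cells were grouped by clustering, and 10 classes were named from their markers with the suffix -like. Adipose stromal cells (ASCs) formed ASC1-like, ASC2-like (Pi16, Dpp4) and ASC3-like (Gdf10, C7) classes. Their own 6 markers were all detected in every C57BL/6J library, which very few counts suffice for. Of these 6, all were raised in clusters 0 and 5 (ASC2-like), 2 (ASC1-like) and 4 (ASC3-like). In cluster 9 (ASC3-like) 5 were raised, and in cluster 1 (ASC1-like) 4. Another 11 clusters were left unnamed and are called by some of their leading genes, leaving out the 10 genes of the set. Sfrp5 was the first leading gene of the Angptl7/Lypd2 cluster. Dkk2 and Sfrp1 were among those of the Cilp/Thbs4 cluster, and Sfrp2 among those of the Cthrc1/Lrrc15 cluster. High levels of these genes there are therefore no independent result. The ASC1-like class changed its makeup with treatment: cluster 1 held 84.2% and 88.1% of its cells in COLD but 2.47% and 5.28% in RT, where cluster 2 held the rest. The CL replicates differed, with 56.2% and 20.7% in cluster 1. In the Adrb1 line cluster 1 held 36.6% and 35.8% in WT and KO at RT and 62.9% and 66.6% in COLD.

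Levels are given as CPM, the counts of a gene scaled by the summed counts of a class in a library. The levels of a gene may be compared between classes, but they are a description without a test, and their SD is over the 6 C57BL/6J libraries of 3 treatments. The 10 genes fell into different cells (plot of mean levels by cell class). Sfrp2, Sfrp4, Rspo3 and Wnt2 were highest in stromal cells, Dkk2 in a stromal cluster led by Cilp and Thbs4, and Sfrp1 in Schwann-like cells. Sfrp5, Rspo1 and Wif1 were highest in the small Angptl7/Lypd2 cluster.

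**Figure D1:**
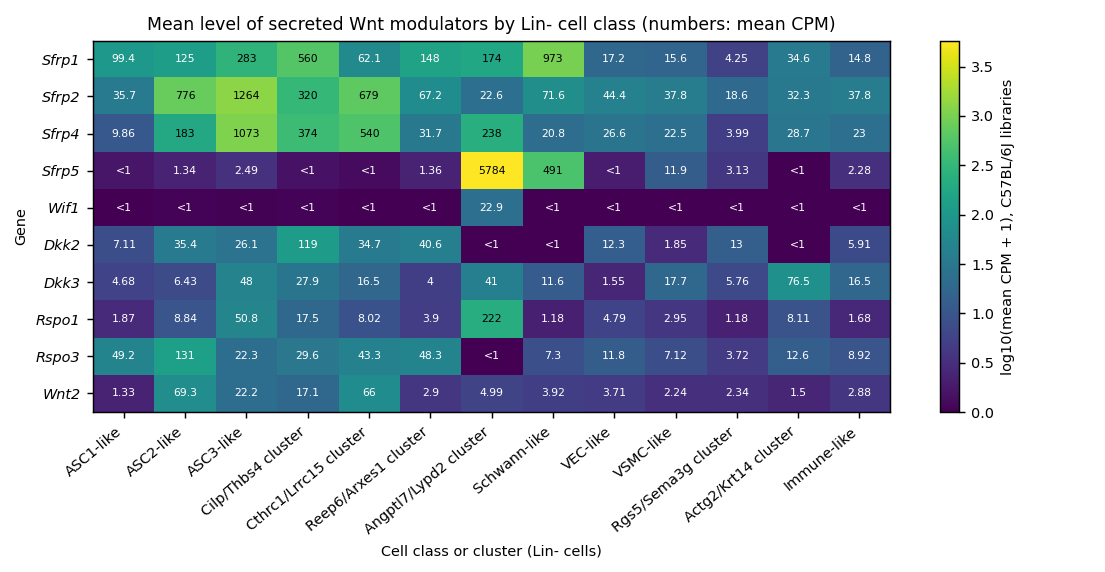
Mean level of each gene (rows) in the Lin- classes and clusters (columns) that held at least 20 cells in 5 or more C57BL/6J libraries. Colour gives log10(mean CPM + 1) and the printed number the mean CPM. Sfrp5 reached 5784 CPM in the Angptl7/Lypd2 cluster, against 2.49 CPM in ASC3-like cells.

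The promoters of 3 genes are shown because the results below turn on them: Dkk2, which fell in the cold, and Sfrp2 and Wnt2, whose levels followed each other across classes (Pearson r = 0.83 over 49 class and library sums, which share libraries and depth). Each run holds the 250 bases before the RefSeq start, 5′ to 3′ on the gene's strand in build GRCm38.p6. Capitals mark matches on either strand to the letters TATAAA of the TATA box, to those of the CCAAT box, which its name spells, or to the GC box, whose letters were searched as GGGCGG.
Dkk2, chr3:132085042-132085291, plus strand: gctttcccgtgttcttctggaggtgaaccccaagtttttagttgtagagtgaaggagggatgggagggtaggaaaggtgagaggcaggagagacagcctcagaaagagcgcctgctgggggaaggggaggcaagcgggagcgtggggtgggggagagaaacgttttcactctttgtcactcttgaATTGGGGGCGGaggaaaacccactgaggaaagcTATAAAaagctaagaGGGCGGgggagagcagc
Sfrp2, chr3:83766071-83766320, plus strand: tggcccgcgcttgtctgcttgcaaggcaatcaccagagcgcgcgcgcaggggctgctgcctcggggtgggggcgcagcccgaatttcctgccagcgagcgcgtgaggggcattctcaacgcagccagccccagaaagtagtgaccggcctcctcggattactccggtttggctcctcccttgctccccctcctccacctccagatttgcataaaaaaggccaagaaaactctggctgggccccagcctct
Wnt2, chr6:18030446-18030695, minus strand: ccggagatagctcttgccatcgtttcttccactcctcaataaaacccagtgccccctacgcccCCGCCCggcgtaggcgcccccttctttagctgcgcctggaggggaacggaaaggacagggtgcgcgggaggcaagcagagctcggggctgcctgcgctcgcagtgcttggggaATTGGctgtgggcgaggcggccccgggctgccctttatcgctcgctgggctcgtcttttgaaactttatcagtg
The Dkk2 promoter held TATAAA 32 bases before the start, a motif found in 12.4% of the 32851 promoter windows of the table. A CCAAT match on the opposite strand adjoined the first of its GC boxes, and GC boxes and CCAAT boxes occurred in 32.7% and 33.8% of all windows. The Sfrp2 promoter held none of these letters and had a GC content of 63.6%, against a median of 52.4% over all windows. The TCF/LEF letters CTTTGAT and CTTTGAA, present in 3.21% and 4.46% of windows, and the cAMP response element TGACGTCA, present in 1.55%, were in none of the 3 windows. The table held promoters for 6 of the 10 genes.

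Sfrp2 and Sfrp4 marked the stroma away from ASC1-like cells. Sfrp2 (chromosome 3, 83766321 to 83774316, GRCm38) averaged 1264 ± 700.2 CPM (SD, n = 6) in ASC3-like cells, 776 ± 157 in ASC2-like cells and 35.7 CPM in ASC1-like cells. The ASC2-like and ASC3-like means lay within the spread of the ASC3-like libraries. In COLD their order was the reverse, with means of 664 CPM in ASC2-like and 523 CPM in ASC3-like cells. In the Adrb1 line ASC2-like cells were also higher in WT RT (311.5 against 178.6 CPM), KO RT (299.1 against 179.9) and KO COLD (423.4 against 151.3). In WT COLD they were lower (303.1 against 381.7 CPM). In ASC1-like cells 7.23% of cells held Sfrp2, against 58.4% of ASC2-like cells and 2.93% of Immune-like cells, which should lack the gene, at median depths of 3769, 2114 and 1508 UMIs. Given its greater depth, the ASC1-like share was near that background. Over all 10 Lin- libraries Sfrp2 stood at 34.3 and 12.5 CPM in ASC1-like clusters 1 and 2, and at 22.9 to 34.6 CPM in the Immune-like clusters. VEC-like (vascular endothelial) and VSMC-like (named from vascular smooth muscle markers) cells, with 3.73% and 2.97%, were near that background. The VSMC-like class joined cluster 13, led by Kcnj8 and Rgs5, and cluster 14, led by Myh11 and Acta2. Of its 5 markers, 3 and 4 were raised in these clusters. Sfrp4 (chromosome 13, 19623104 to 19632994) averaged 1073 ± 756 CPM in ASC3-like cells, 183 ± 59.2 in ASC2-like cells and 9.86 CPM in ASC1-like cells. It was found in 40.8% of ASC3-like and 1.81% of Immune-like cells, so that its 1.97% in ASC1-like cells was at the background.

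Within ASC3-like cells Sfrp2 was split between the 2 clusters of the class. In RT, cluster 4 held 2107 and 3403 CPM and cluster 9 held 803 and 885 CPM. The genes whose pattern was nearest to Sfrp2 over the 49 sums were Pcolce2 (r = 0.92), Col14a1 (r = 0.91) and Igfbp6 (r = 0.89). For Sfrp4 the nearest gene was Sfrp2 (r = 0.88).

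Sfrp1 (chromosome 8, 23411502 to 23449632) was spread over Schwann-like and stromal cells. It averaged 973 ± 274 CPM in Schwann-like cells, 560 ± 191 in the Cilp/Thbs4 cluster, 283 ± 94.4 in ASC3-like cells, 125 ± 25.2 in ASC2-like cells and 99.4 ± 40.3 in ASC1-like cells. The last 2 overlapped, whereas the Schwann-like libraries (474 to 1316 CPM) overlapped with the Cilp/Thbs4 libraries (367 to 895 CPM) only through CL replicate 2. Sfrp1 was found in 52.4% of Schwann-like cells and 2.15% of Immune-like cells. Its nearest genes were Scn7a (r = 0.95) and Lgi4 (r = 0.93), both known from Schwann cells.

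Sfrp5 and Wif1 were nearly absent from ASCs. Sfrp5 (chromosome 19, 42197971 to 42202252) averaged 5784 ± 2800 CPM (n = 5 libraries with at least 20 cells) in the Angptl7/Lypd2 cluster, which supplied 73.0% of its counts, and 491 ± 146 CPM in Schwann-like cells, which supplied 21.1%. Its mean was 0.705 CPM in ASC1-like, 1.34 CPM in ASC2-like and 2.49 CPM in ASC3-like cells, against 2.28 CPM in Immune-like cells. The Angptl7/Lypd2 cluster was small, with 27 to 56 cells in each of these 5 libraries. In it Sfrp5 stood at 7580 and 8039 CPM in RT, 5037 and 7052 CPM in COLD and 1215 CPM in CL replicate 2, or 1742 CPM there without the shared barcodes. CL replicate 1 stood at 6212 CPM but had only 11 such cells, so no treatment comparison was made. Wif1 (chromosome 10, 121033960 to 121100650) averaged 22.9 ± 32.3 CPM in the same cluster and rested on few counts. In CL replicate 2 it fell from 78.4 CPM to 19.05 CPM when shared barcodes were left out.

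The R-spondins were highest in different ASC classes. Rspo1 (chromosome 4, 124986430 to 125009099) averaged 222 ± 93.3 CPM in the Angptl7/Lypd2 cluster, 50.8 ± 28.2 in ASC3-like cells, 8.84 ± 1.83 in ASC2-like cells and 1.87 ± 1.28 in ASC1-like cells, and the ranges of these 4 over libraries did not overlap. ASC3-like cells supplied 46.3% of its counts. Rspo3 (chromosome 10, 29452416 to 29535867) averaged 131 ± 36.8 CPM in ASC2-like, 49.2 ± 12.1 in ASC1-like and 22.3 ± 14.5 in ASC3-like cells, and the last 2 ranges overlapped. ASC2-like cells supplied 44.6% and ASC1-like cells 31.7% of its counts, and it was found in 24.1% of ASC2-like, 14.8% of ASC1-like and 1.71% of Immune-like cells. The nearest genes were Penk (r = 0.85) for Rspo1 and Shc2 (r = 0.82) for Rspo3.

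Wnt2 (chromosome 6, 17988940 to 18030585), the ligand of the set, averaged 69.3 ± 25.5 CPM in ASC2-like cells, 66.0 ± 34.02 CPM (n = 5) in the Cthrc1/Lrrc15 cluster, 22.2 ± 13.1 in ASC3-like cells and 1.33 ± 0.605 in ASC1-like cells. Pooled over treatments, the first 2 overlapped. In CL the Cthrc1/Lrrc15 cluster was above ASC2-like cells, which held 55.7 and 59.0 CPM. In COLD it was below them, at 31.1 and 43.1 CPM against 55.1 and 54.4 CPM. In every Adrb1-line library it was above them, for example at 143 against 83.4 CPM in WT COLD. Wnt2 was found in 14.2% of ASC2-like cells, 0.462% of ASC1-like cells and 0.439% of Immune-like cells, which put ASC1-like cells at the background. Among the C57BL/6J libraries the Cthrc1/Lrrc15 cluster was mostly made of CL cells, with 1407 and 319 in CL, 42 and 163 in COLD and 7 and 21 in RT. CL replicate 1 gave 57.5% of its cells over all 10 Lin- libraries. In the Adrb1 line the cluster held 201 and 34 cells in WT and KO at RT and 168 and 84 in COLD. The WT RT library kept 4818 cells and CL replicate 2 kept 6422, so that their shares were of similar size. In CL it held Wnt2 at 100.2 and 105 CPM, Sfrp2 at 1855 and 857 CPM and Sfrp4 at 280 and 391 CPM. Of its cells in CL replicate 2, 58.0% had a barcode shared with the Lin+ library.

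Dkk2 (chromosome 3, 132085292 to 132180304) averaged 119 ± 59.5 CPM in the Cilp/Thbs4 cluster, 40.6 ± 46.3 CPM in a cluster led by Reep6 and Arxes1, 35.4 ± 24.7 in ASC2-like cells, 26.1 ± 17.9 in ASC3-like cells and 7.11 ± 4.89 in ASC1-like cells, and the ASC2-like and ASC3-like ranges overlapped. It was found in 16.4% of Cilp/Thbs4 cells, 6.41% of ASC2-like cells, 1.58% of ASC1-like cells and 0.83% of Immune-like cells. The median depth was 3769 UMIs in ASC1-like and 1508 UMIs in Immune-like cells, so that the ASC1-like share was near the background. Within ASCs it was concentrated in cluster 0 of the ASC2-like class and cluster 9 of the ASC3-like class. In VEC-like cluster 8 it stood at 38.4 CPM over all Lin- libraries, against 40.55 CPM in cluster 0 and 37.2 CPM in cluster 9. In the males VEC-like means were 16.2 CPM in RT, 8.48 CPM in COLD and 12.3 CPM in CL, below ASC2-like means. In the Adrb1 line VEC-like cells held 35.7, 40.7 and 75.2 CPM in WT RT, WT COLD and KO COLD. ASC2-like cells held 28.4, 27.1 and 15.5 CPM there. In KO RT VEC-like cells were lower (12.6 against 20.6 CPM). Dkk3 (chromosome 7, 112116017 to 112159057) averaged 76.5 ± 36.1 CPM (n = 5) in a cluster led by Actg2 and Krt14, 48.0 ± 14.6 in ASC3-like cells, 17.7 ± 8.77 in VSMC-like cells and 4.68 CPM in ASC1-like cells. Its 1.85% of ASC1-like cells was below the 3.86% of Immune-like cells, which themselves averaged 16.5 CPM.

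The first question was how 4 days of cold changed these genes in each ASC class. Summed counts were tested with edgeR's quasi-likelihood test over the 6 C57BL/6J Lin- libraries, with Benjamini-Hochberg adjustment over all genes tested and a threshold of 0.05. In each of the 3 ASC classes 8 of the 10 genes passed the filter on low counts, and Sfrp5 and Wif1 did not. Dkk2 fell in ASC2-like and ASC3-like cells, and Dkk3 rose in ASC1-like cells (plot of fold changes). The background share of called genes was 11.1%, 0.699% and 0.137% in the ASC1-like, ASC2-like and ASC3-like classes, against 1 of 8 members in each class. In ASC1-like cells that is close to the background. With the replicate block, which lets the libraries of the 2 replicate experiments differ by a shared amount, 2 of 8 members were called in ASC1-like cells against a background of 17%, and 1 of 8 in the others against 1.97% and 0.419%. The median log2 fold change over the 8 members was -0.15, -0.33 and -0.81 in the 3 classes, against 0.01, 0.00 and 0.01 over all genes tested.

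**Figure D2:**
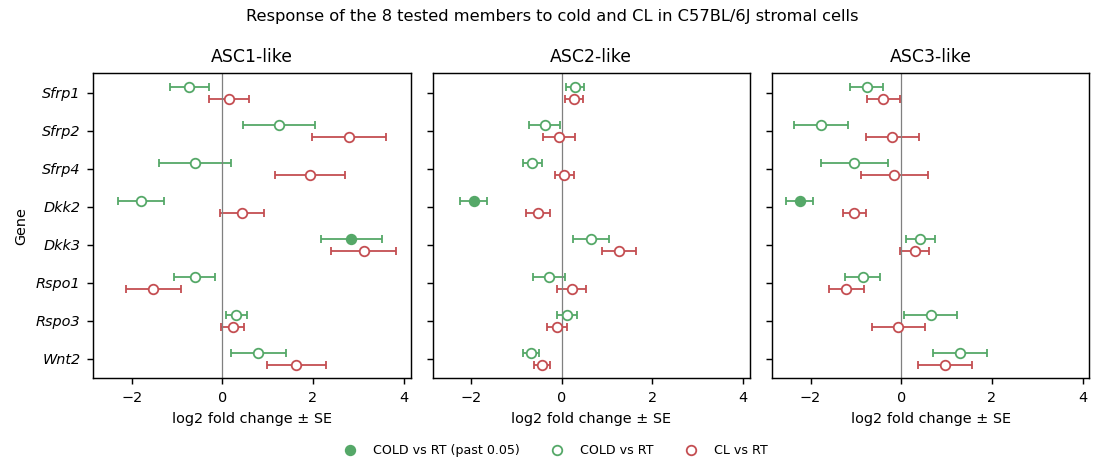
Log2 fold change (x axis, ± SE) of the 8 tested genes (rows) for COLD against RT (green) and CL against RT (red) in the 3 ASC classes, from 2 C57BL/6J libraries per group. Filled points passed the adjusted threshold of 0.05 in the fit without the replicate block: Dkk3 at 2.84 in ASC1-like, Dkk2 at -1.95 in ASC2-like and Dkk2 at -2.24 in ASC3-like cells.

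Dkk2, the LRP5 and LRP6 antagonist, stood in ASC3-like cells at 42.6 and 53.2 CPM in RT, 12.4 and 7.93 CPM in COLD and 21.9 and 18.7 CPM in CL. Both COLD libraries were below both CL libraries, and these were below both RT libraries. The log2 fold change in COLD was -2.24 ± 0.29 (SE) with an adjusted p of 0.0243 by edgeR. In ASC2-like cells Dkk2 stood at 41.3 and 79.7 CPM in RT, 13.5 and 14.2 CPM in COLD and 24.9 and 38.9 CPM in CL, again without overlap between groups. Its log2 fold change in COLD was -1.95 ± 0.30 with an adjusted p of 0.0297 by edgeR. In ASC1-like cells it stood at 7.40 and 11.7 CPM in RT and 1.86 and 2.87 CPM in COLD, a log2 fold change of -1.79 ± 0.50 that missed the threshold in edgeR (adjusted p = 0.0531) and passed it in DESeq2 (adjusted p = 0.0394). With the replicate block in edgeR it was -1.94 ± 0.40 and passed (adjusted p = 0.0128). Immune-like cells held Dkk2 at 4.76 to 5.48 CPM in RT and 4.17 to 4.26 CPM in COLD, so that the ASC1-like COLD levels were below theirs. The part of free RNA in the ASC1-like change was not tested.

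Among the ASC clusters, lower Dkk2 in the cold was seen in both that held most of it (plot of Dkk2 and Sfrp2 by cluster). In cluster 0 of the ASC2-like class it went from 60.8 and 98.2 CPM in RT to 17 and 18.1 CPM in COLD, and in cluster 9 of the ASC3-like class from 70.4 and 113 CPM to 31.8 and 15.4 CPM. Cluster 9 made up 39.5% and 41.4% of ASC3-like cells in RT and 33.6% and 43.4% in COLD. Outside the ASC classes, Dkk2 in the Cilp/Thbs4 cluster stood at 119.9 and 226 CPM in RT and 75.0 and 85.2 CPM in COLD, and was not called (log2 fold change -0.96 ± 0.38, adjusted p = 0.798, edgeR). The Reep6/Arxes1 cluster, for which no test was run, held 74.7 and 117.4 CPM in RT, 2.90 and 2.82 CPM in COLD and 13.5 and 32.3 CPM in CL, on 5.98 and 48.2 counts in RT and 6 and 4.98 counts in COLD. Dkk2 was also fitted without single libraries. The ASC2-like call was lost without COLD replicate 1, COLD replicate 2 or RT replicate 2, and the ASC3-like call without any 1 of the 4 RT and COLD libraries. Each such fit leaves 1 library in a group, so these losses cannot show that the calls rested on that library. Without RT replicate 2 the log2 fold change of Dkk2 was -1.78 for the ASC2-like class and -2.38 for the ASC3-like class. Without the shared barcodes the ASC3-like value was -2.24 with an adjusted p of 0.0541 by edgeR. That fit called 2 genes over all, against 14 in the main fit. The ASC2-like value without these barcodes was -1.95 with an adjusted p of 0.0397 by edgeR. The ASC2-like call was lost at resolution 0.5 (-1.81, adjusted p = 0.157, edgeR), where 33 genes were called over all, against 76 in the main fit. It was also lost over all 10 Lin- libraries (-1.06, adjusted p = 0.0621, edgeR).

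**Figure D3:**
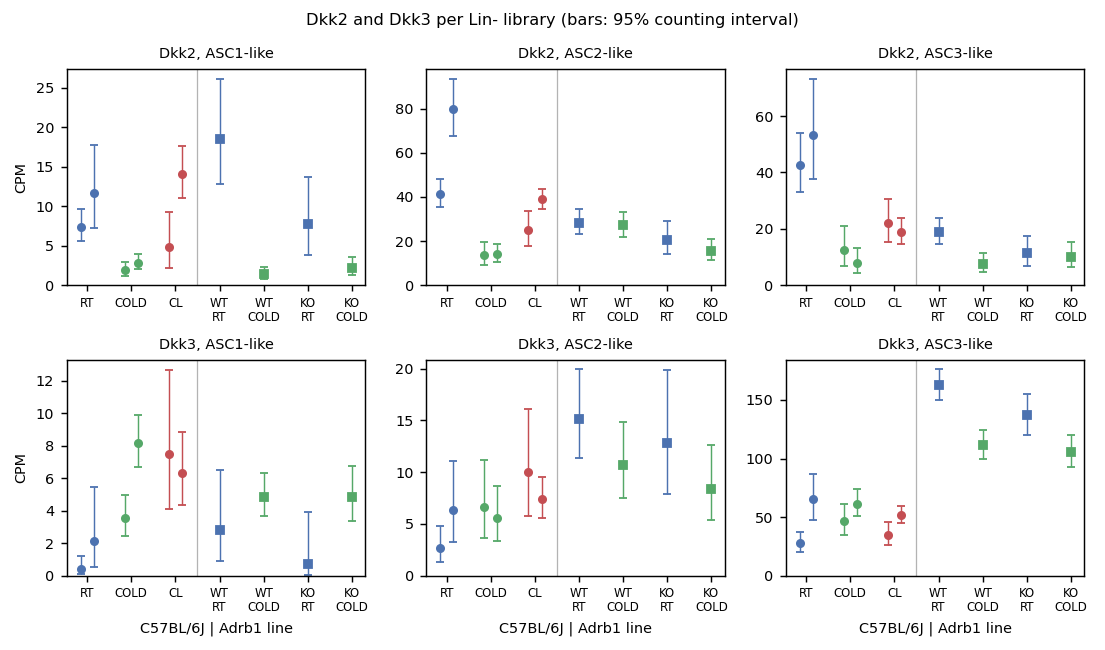
CPM (y axis) of Dkk2 and Dkk3 in each Lin- library for the 3 ASC classes, with 95% exact Poisson intervals that cover counting error only. Circles are C57BL/6J and squares Adrb1-line libraries. Dkk2 in ASC3-like cells was 42.6 and 53.2 CPM in RT against 12.4 and 7.93 CPM in COLD.

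Dkk3 in ASC1-like cells stood at 0.417 and 2.11 CPM in RT, 3.56 and 8.17 CPM in COLD and 7.51 and 6.31 CPM in CL. The RT libraries were lowest and rested on 2.98 and 3.92 counts, whereas COLD held 34.5 and 102 counts. The log2 fold change in COLD was 2.84 ± 0.68 with an adjusted p of 0.0308 by edgeR. These levels were all below the 16.5 CPM mean of Dkk3 in Immune-like cells. There it stood at 6.29 and 13.6 CPM in RT and 28.6 and 27.9 CPM in COLD, also higher in the cold. This class cannot serve as a background for Dkk3. Over all 10 Lin- libraries its cluster 22 (H2-Ab1, Cd74) held 39.5 CPM and cluster 33 held 23.8 CPM, against 2.35 to 4.91 CPM in clusters 16, 19 and 32. Of cluster 22, 29.1% of cells came from COLD replicate 1, and the part of class makeup was not tested. The 5 immune markers summed to 8.26 and 9.96 CPM in ASC1-like cells in COLD and to 3.24 and 1.71 CPM in RT, where 0 and 3 of the 5 were at 0. The part of free RNA in the result was not tested. In COLD, 31.5 and 97.9 of these counts came from cluster 1. The call was lost without RT replicate 1 (1.95, adjusted p = 0.219, edgeR), RT replicate 2 (3.58, adjusted p = 0.0704, edgeR) or COLD replicate 2 (2.00, adjusted p = 0.151, edgeR). With coarser clustering (resolution 0.5) it was lost too (1.74, adjusted p = 0.0875, edgeR), whereas Dkk2 in ASC1-like cells was called there (-2.80, adjusted p = 0.0101, edgeR). Without the shared barcodes the Dkk3 value was 2.84 (adjusted p = 0.0342, edgeR).

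Of the frizzled-related genes, none passed the threshold in the cold in the main edgeR fit, whereas DESeq2 called Sfrp2 in ASC3-like cells. An edgeR fit over all 10 Lin- libraries, which brings in the Adrb1 line with its kit change, called Sfrp1 in ASC1-like (-1.10, adjusted p = 0.0226) and ASC2-like cells (0.78, adjusted p = 0.043) and Sfrp4 in ASC2-like cells (-0.61, adjusted p = 0.0289). Without the filter on low counts edgeR called Sfrp1 (-0.71, adjusted p = 0.0236) and Sfrp2 (1.26, adjusted p = 1.015e-06) in ASC1-like cells. Sfrp2 in ASC3-like cells stood at 1531 and 2273 CPM in RT, 436 and 610 CPM in COLD and 1028 and 1703 CPM in CL, so that both COLD libraries were below all others. Its log2 fold change in COLD of -1.77 ± 0.60 had an adjusted p of 0.538 by edgeR and 0.00899 by DESeq2. Cluster 4 of the class held 2107 and 3403 CPM in RT and 455 and 678 CPM in COLD. Sfrp4 in ASC2-like cells stood at 163 and 286 CPM in RT and 149 and 114 CPM in COLD (log2 fold change -0.65 ± 0.21, adjusted p = 0.309, edgeR). Sfrp1 in ASC1-like cells stood at 141 and 79.6 CPM in RT and 84.9 and 49.4 CPM in COLD, and the groups overlapped.

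**Figure D4:**
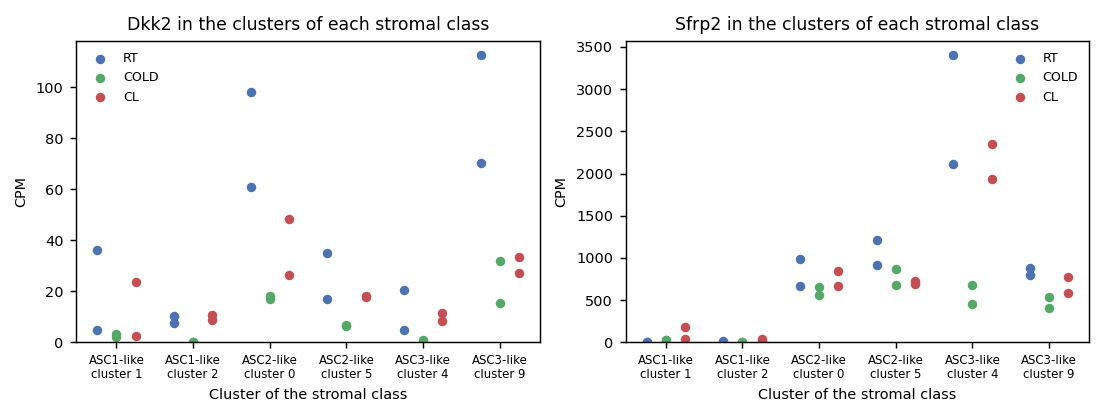
CPM (y axis) of Dkk2 and Sfrp2 in the 2 clusters that make up each ASC class (x axis), 1 point per C57BL/6J library with at least 20 cells of the cluster. Sfrp2 in cluster 4 of the ASC3-like class was 455 and 678 CPM in COLD, below its RT and CL points.

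Wnt2, Rspo1 and Rspo3 were not called in the cold in the main fit either. Wnt2 in ASC2-like cells stood at 71.8 and 119.6 CPM in RT, 55.1 and 54.4 CPM in COLD and 55.7 and 59.0 CPM in CL. Both RT libraries were above the rest, yet the log2 fold change in COLD of -0.68 ± 0.17 had an adjusted p of 0.169 by edgeR. In ASC3-like cells Wnt2 stood at 11.4 and 16.3 CPM in RT, 19.4 and 43.9 CPM in COLD and 10.6 and 31.9 CPM in CL. Both COLD libraries were above both RT libraries there, with a log2 fold change of 1.30 ± 0.60 (adjusted p = 0.736, edgeR) that was called without the filter on low counts (1.31, adjusted p = 0.00924, edgeR). Rspo3 in ASC2-like cells, its main source, stood at 94.4 and 195 CPM in RT and 145 and 135 CPM in COLD, with overlapping groups. Rspo1 in ASC3-like cells stood at 68.5 and 95.7 CPM in RT, 30.0 and 54.3 CPM in COLD and 18.4 and 38.0 CPM in CL. Its RT libraries were above the others, with an adjusted p of 0.733 for COLD and 0.524 for CL by edgeR.

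The second question was whether the β3-adrenergic agonist, given at 24 °C, moved the same genes. With edgeR and no replicate block no member was called for CL against RT in ASC1-like, ASC2-like or ASC3-like cells. The background there was 1.08%, 0.0276% and 0.0488%. An unadjusted p under 0.05 was found for 5, 2 and 2 of the 8 members. Over all genes it was found for 1566 of 12439, 812 of 10872 and 778 of 10255. DESeq2 called 1 (Dkk3), 0 and 0, and in ASC1-like cells it called 281 genes over all. With the replicate block edgeR called 2, 0 and 0, against backgrounds of 2.15%, 0.533% and 0.419%. Dkk3 in ASC1-like cells had a log2 fold change of 3.11 ± 0.72 in CL (adjusted p = 0.104, edgeR), 3.08 in DESeq2 (adjusted p = 0.0128) and 2.90 ± 0.60 with the replicate block (adjusted p = 0.0447, edgeR). Dkk2 in ASC3-like cells had one of -1.03 ± 0.25 (adjusted p = 0.321, edgeR), and in ASC1-like cells its CL libraries, at 4.85 and 14.0 CPM, enclosed both RT libraries.

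Sfrp2, whose share of ASC1-like cells was near the background as given above, varied widely between libraries in these cells under CL. It stood at 14.2 and 1.25 CPM in RT, 25.02 and 22.7 CPM in COLD and 127 and 23.8 CPM in CL, and CL replicate 1 stood far above the other libraries. Within each replicate experiment the CL library was above its RT library. The log2 fold change in CL was 2.80 ± 0.82 with an adjusted p of 0.192 by edgeR, or 2.90 ± 0.58 with the replicate block (adjusted p = 0.0399, edgeR). Its size moved with single libraries, to 1.41 without CL replicate 1 (adjusted p = 0.644, edgeR), 6.47 without RT replicate 1 (adjusted p = 0.0938, edgeR) and 3.55 without CL replicate 2, where it was called (adjusted p = 0.0309, edgeR). The same library was highest for Sfrp2 in VEC-like (124 CPM), VSMC-like (83.9 CPM), Schwann-like (242 CPM) and Immune-like cells (120.2 CPM). In that library the 6 ASC2 markers summed to 363 CPM in ASC1-like cells, against 166 to 394 CPM in the others, and all 6 were detected in each. The Cthrc1/Lrrc15 cluster held Sfrp2 at 1855 CPM in the same library. The ASC2 markers were not chosen to follow RNA from that cluster, so their sums cannot show its part. The parts of free RNA and of class makeup in these values were not tested.

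COLD and CL were also set against each other. With edgeR no member passed in the ASC1-like, ASC2-like or ASC3-like class, where the background was 0.338%, 0.0184% and 0%. In each class 2 of 8 had an unadjusted p under 0.05, against 1368 of 12439, 689 of 10872 and 419 of 10255 genes over all. DESeq2 called 0 in each. In ASC1-like cells Sfrp4 stood at 1.99 and 4.04 CPM in COLD and 36.8 and 4.96 CPM in CL. Its log2 fold change was -2.55 ± 0.73 (adjusted p = 0.236, edgeR), and -3.47 without CL replicate 2. As given above, Sfrp4 was at the background in these cells. In CL it averaged 50.9, 56.45 and 42.8 CPM in Immune-like, Schwann-like and VEC-like cells, against 6.755, 1.32 and 6.07 CPM in COLD. The parts of free RNA and of class makeup in the ASC1-like difference were not tested. Dkk2 was lower in COLD in all 3 classes, with log2 fold changes of -2.22 ± 0.50, -1.43 ± 0.31 and -1.20 ± 0.30 and adjusted p of 0.147, 0.194 and 0.747 by edgeR. With the replicate block the ASC2-like value was -1.40 ± 0.22 and was called (adjusted p = 0.0338, edgeR; background 0.469%). Single CL libraries moved these values. Without CL replicate 1 Dkk2 was called in ASC1-like (-2.72, adjusted p = 0.0142, edgeR) and ASC2-like cells (-1.73, adjusted p = 0.037, edgeR), and without CL replicate 2 it was -0.92 (adjusted p = 0.849, edgeR) and -0.83 (adjusted p = 0.454, edgeR). These values share the COLD libraries with the comparison against RT.

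**Figure D5:**
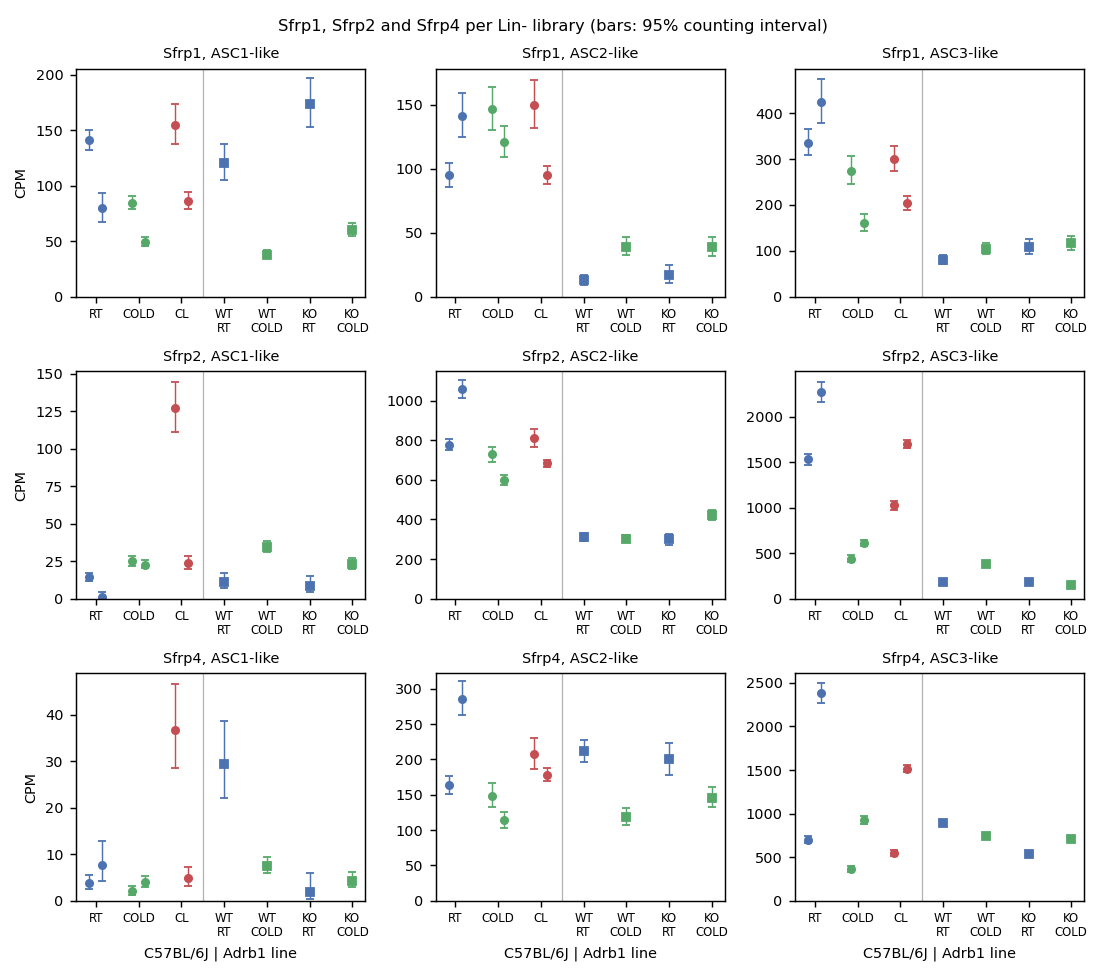
CPM (y axis) of Sfrp1, Sfrp2 and Sfrp4 in each Lin- library for the 3 ASC classes, with 95% exact Poisson intervals that cover counting error only. Circles are C57BL/6J and squares Adrb1-line libraries. Sfrp2 in ASC1-like cells was 127 CPM in a single CL library and at most 34.7 CPM in the others.

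Whether the classes answered differently was tested with the interaction of class and treatment, with library as a block. For COLD, Sfrp1 was called between ASC1-like and ASC2-like cells and Dkk3 between ASC1-like and ASC3-like cells, 1 of 8 members each against backgrounds of 8.54% and 5.3%. Sfrp1 in ASC2-like cells stood at 94.8 and 141 CPM in RT and 146 and 121 CPM in COLD, and the response in ASC1-like cells was different by -0.998 on the log2 scale (SE 0.30, adjusted p = 0.0444, edgeR). Without RT replicate 1 that difference was -0.11 (adjusted p = 0.881, edgeR), without COLD replicate 2 it was -0.70 (adjusted p = 0.313, edgeR), and without RT replicate 2 it was -1.60 (adjusted p = 0.000384, edgeR). Dkk3 in ASC3-like cells stood at 27.9 and 65.2 CPM in RT and 46.6 and 61.4 CPM in COLD, and the response in ASC1-like cells was higher by 2.34 ± 0.56 (adjusted p = 0.0289, edgeR). That call was lost without RT replicate 1 (1.78, adjusted p = 0.32), RT replicate 2 (2.87, adjusted p = 0.101) or COLD replicate 2 (1.79, adjusted p = 0.178, all edgeR). As given above, the share of ASC1-like cells with Sfrp2 was near the background. For Sfrp2 the 2 differences in cold response were 1.82 ± 0.65 (adjusted p = 0.0935, edgeR) against ASC2-like and 3.28 ± 0.91 (adjusted p = 0.0553, edgeR) against ASC3-like cells. Without RT replicate 1 they were 5.21, which was called (adjusted p = 0.00642, edgeR), and 6.63 (adjusted p = 0.0514, edgeR), and without RT replicate 2 they were 1.00 (adjusted p = 0.345, edgeR) and 2.39 (adjusted p = 0.265, edgeR). For CL no member was called in either comparison (background 0.929% and 0.295%) in edgeR, the only tool run here. At an unadjusted p under 0.05 were 6 and 4 of 8 members, against 1315 of 12277 and 951 of 11199 genes over all.

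In VEC-like cells 6 members and in VSMC-like cells 4 members passed the filter on low counts. None of them was called by edgeR for COLD (background 0.304% and 0.366%) or CL (0.00949% and 0%). At an unadjusted p under 0.05 were 1 and 1 for COLD, against 1054 of 10540 and 858 of 9569 genes over all. For CL these were 1 and 2 members, against 931 and 851 genes. DESeq2 called none either, and the replicate block called 1, described next. Sfrp2 in VSMC-like cells stood at 21.3 and 17.2 CPM in RT, 29.02 and 27.01 CPM in COLD and 83.9 and 48.4 CPM in CL, with a log2 fold change of 1.77 ± 0.34 in CL (adjusted p = 0.112, edgeR), or 1.84 ± 0.31 with the replicate block (adjusted p = 0.0292, edgeR; background 0.679%). Its CL libraries were above the others, and the 6 ASC2 markers in these cells also were, at 629 and 539 CPM in CL, 499.8 and 389.8 CPM in COLD and 164 and 274 CPM in RT. In Schwann-like cells and the Cilp/Thbs4 cluster, added after their levels were seen, no member was called for COLD (background 0.721% and 0.128%) or CL (0.0779% and 0.0856%) with edgeR. At an unadjusted p under 0.05 there were 0 of 4 and 3 of 7 members for COLD and 2 of 4 and 4 of 7 for CL. Over all genes there were 583 of 5132 and 366 of 7012 for COLD and 327 and 467 for CL. Sfrp1 in Schwann-like cells stood at 1011 and 1316 CPM in RT, 1060 and 980.5 CPM in COLD and 998 and 474 CPM in CL.

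In the Adrb1 line the targeted gene was looked at first. Adrb1 in ASC1-like cells stood at 6.76 CPM in WT RT and 3.98 CPM in WT COLD, against 0 counts in KO RT and 0.566 CPM (3.97 counts) in KO COLD. No member differed between KO and WT in the 3 ASC classes with edgeR (background 0%, 0.00878% and 0%) or DESeq2, over 8, 8 and 9 tested members. Over all genes 278 of 12792, 208 of 11395 and 141 of 10934 had an unadjusted p under 0.05, and among the members 0, 1 and 0. The 1 was Dkk2 in ASC2-like cells, at 20.6 and 15.5 CPM in KO RT and KO COLD against 28.4 and 27.1 CPM in WT. Its log2 fold change was -0.66 ± 0.29 (adjusted p = 1, edgeR).

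Cold against RT in this line, with kit and temperature inseparable, called 37.6%, 34.7% and 22.4% of all genes in ASC1-like, ASC2-like and ASC3-like cells and 2 of 8, 2 of 8 and 1 of 9 members. Dkk2 in ASC1-like cells stood at 18.6 and 7.69 CPM in WT and KO at RT and 1.39 and 2.22 CPM in COLD (log2 fold change -2.80 ± 0.63, adjusted p = 0.00622, edgeR). In ASC2-like cells its log2 fold change was only -0.15 and in ASC3-like cells -0.91 (adjusted p of 0.716 and 0.0676, edgeR). Sfrp1 fell in ASC1-like cells, from 120.4 and 174 CPM to 38.0 and 60.0 CPM (-1.51 ± 0.41, adjusted p = 0.0154, edgeR), and rose in ASC2-like cells, from 12.8 and 16.6 CPM to 39.0 and 38.7 CPM (1.48 ± 0.21, adjusted p = 0.000874, edgeR). Rspo3 rose in ASC2-like cells, from 43.4 and 39.8 CPM to 92.8 and 105 CPM (1.29 ± 0.21, adjusted p = 0.00156, edgeR). Sfrp2 in ASC3-like cells stood at 179 and 179.9 CPM in WT and KO at RT and 382 and 151 CPM in COLD (log2 fold change 0.34 ± 0.49, adjusted p = 0.646, edgeR), without the lower COLD level of the C57BL/6J libraries. Sfrp5 in ASC3-like cells was called at 3.43 ± 0.88 (adjusted p = 0.0189, edgeR), from 1.09 and 0 CPM to 8.67 and 8.62 CPM, on 3.99 and 0 counts at RT. Sfrp5 was also higher in COLD over the whole Lin- libraries of this line, at 14.1 and 11.9 CPM in WT and KO at RT and 45.8 and 45.5 CPM in COLD. In VEC-like cells it had 0 counts in both RT libraries and 19.7 and 1.51 CPM in COLD. The Angptl7/Lypd2 cluster held 992.5 and 1261 CPM in WT and KO at RT, the latter on 13 cells, and 5883 and 3564 CPM in COLD. The part of free RNA in the ASC3-like call was not tested.

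Other genes of the Wnt pathway were read from 75 further genes in lists of ligands, secretion factors, other secreted modulators, receptors, transducers and targets. In ASC1-like cells 41 were tested for COLD, 3 rose and 3 fell, which is near the 11.1% of all genes called there. In ASC2-like cells 38 were tested and 1 fell (background 0.699%). In ASC3-like cells 39 were tested and edgeR called none (background 0.137%). There 6 had an unadjusted p under 0.05, against 704 of 10255 genes over all. With the replicate block 5 rose and 4 fell in ASC1-like cells, near a background of 17%, and the added genes were Fzd5, Porcn and Myc. The ligand Wnt5a fell in ASC1-like cells, from 92.4 and 123 CPM in RT to 39.7 and 37.0 CPM in COLD (-1.34 ± 0.17, adjusted p = 0.00234, edgeR), and in ASC2-like cells (-1.10 ± 0.19, adjusted p = 0.0432, edgeR). Of the receptors, 2 of 15 tested rose in ASC1-like cells, again near the background share: Fzd1 (1.00 ± 0.20, adjusted p = 0.0173, edgeR) and Fzd4 (0.77 ± 0.16, adjusted p = 0.0186, edgeR). Of 5 tested targets there, Nkd1, a feedback inhibitor of the pathway, fell (-1.62 ± 0.24, adjusted p = 0.00459, edgeR), and Wisp1 rose (3.26 ± 0.71, adjusted p = 0.0228, edgeR). The R-spondin receptor Lgr4 had -0.65 ± 0.25 in ASC1-like cells (adjusted p = 0.132, edgeR), and Lrp6 0.17 ± 0.19 (adjusted p = 0.597, edgeR). For CL no gene of the lists was called in the ASC1-like, ASC2-like or ASC3-like class with edgeR. At an unadjusted p under 0.05 were 8, 4 and 5, against 1566 of 12439, 812 of 10872 and 778 of 10255 genes over all. Axin2, Lef1, Tcf7 and Lgr5 did not pass the filter on low counts in these fits.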

How the data were processed

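The deposited values were single-cell UMI counts of 31053 genes for 20 libraries, which the authors had aligned to mm10 with Cell Ranger 3.0.1 and corrected for free RNA with SoupX, so they are estimated counts that need not be whole and were rounded for tests. Fabp4 and Car3 were taken by the authors as genes that most cells do not express. Cells with under 10% mitochondrial UMIs, under 15000 UMIs and, in Lin- libraries, over 100 genes were kept. Lin- cells were clustered with scanpy 1.11.5 and leidenalg 0.10.2 (2000 variable genes, 30 components, resolution 1) into 35 clusters, named where at least 3 markers were raised. Doublets were kept in the main analysis. The classes were rebuilt here and may differ from those of the study.

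Counts were summed per class and library, and classes with at least 20 cells were tested with edgeR 4.0.16 in R 4.3.3 (TMM, filterByExpr, quasi-likelihood test, Benjamini-Hochberg adjustment, threshold 0.05), on 6 C57BL/6J libraries. The Adrb1 line was fitted over all 10 Lin- libraries, with genotype as a term shared by both temperatures. The test was checked on simulated data: of 200 changed genes, 86% of 4-fold and 37% of 2-fold changes were recovered for ASC1-like cells in COLD against RT among 12439 genes, with 16 false calls of 139. For ASC2-like cells 86% and 29% were recovered among 10872 genes (9 of 124 calls false), and for ASC3-like cells 73% and 10% among 10255 genes (6 of 89 false). Alternatives were DESeq2 1.42.0, no filter on low counts, the replicate block, resolution 0.5, stricter cell filters, leaving out high Scrublet scores, all 10 libraries, thinning and leaving out single libraries. Leaving out shared barcodes was chosen after seeing the data. Intervals are exact Poisson intervals at 95% and cover counting error only. Lin- libraries held a median of 1204 to 3881 UMIs per cell.

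The rule for named genes allowed all 10 genes in every main comparison, and those not named are given by counts. From the pathway lists, up to 5 called genes per class and comparison could be named, with Axin2, Lef1, Tcf7, Wnt5a, Fzd4, Lgr4, Lgr5 and Lrp6 in any case, and for each member the 3 genes nearest by Pearson correlation of log2(CPM + 1). Members and lists were chosen with earlier results of these data known. Per the study's methods, libraries with the same replicate number came from 1 replicate experiment, which is the source of the pairing. The deviations of same-numbered libraries from their group means correlated, in ASC1-like, ASC2-like and ASC3-like cells, at 0.16, 0.21 and 0.11 for RT and COLD, at -0.03, 0.05 and 0.01 for RT and CL, and at 0.31, 0.31 and 0.34 for COLD and CL. The fit without the replicate block is the main one. Replicates are pools of mice, so p-values measure the spread between these pools.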

Additional observations from a re-analysis of the deposited data

Results flagged for a closer look

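The log2 response of Sfrp1 to cold in ASC1-like cells minus that in ASC2-like cells was -0.998, by a test of the interaction itself. For Dkk3 the response in ASC1-like minus that in ASC3-like cells was 2.34, by the same test.

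Signal above the RT control libraries was seen in the Lin+ libraries, which the comparisons did not use. Sfrp2 stood at 3.85 and 19.98 CPM in the CL replicates, against 0.65 and 0.618 CPM in RT. Without the shared barcodes the second of these was 2.40 CPM. Dkk3 stood at 6.53 and 5.16 CPM in the COLD replicates, against 2.03 and 1.51 CPM in RT. In the Adrb1 line Dkk3 went from 1.26 to 2.41 CPM in WT and from 1.49 to 1.15 CPM in KO, RT to COLD.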

How the results depend on the processing

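Counts of called members changed most without the filter on low counts, where calls over all genes also rose (2469 against 1382 for ASC1-like COLD against RT). Genes called over all in the same fits follow in brackets. There, ASC1-like gave 4 for COLD, 3 for CL and 4 for COLD against CL (2469, 727 and 633). ASC2-like gave 1 for COLD against CL (231), and ASC3-like 2, 2 and 1 (209, 278 and 127). VEC-like gave 2 and 1 (342 and 304) and VSMC-like 2 and 2 (324 and 239) for COLD and CL. The response differences for COLD and CL gave 3 and 2 (1359 and 375) for ASC1-like against ASC2-like and 2 and 4 (957 and 256) against ASC3-like. KO against WT gave 1 (63) in ASC1-like cells, and Adrb1-line cold gave 6 (5229) in ASC1-like and 3 (2939) in ASC3-like cells. DESeq2 gave 2 (ASC1-like COLD), 1 (ASC1-like CL) and 2 (ASC3-like COLD), and it called 1186, 281 and 41 genes over all there. Resolution 0.5 gave 1 (ASC1-like CL) and 0 (ASC2-like COLD), with 152 and 33 genes called over all. In ASC1-like COLD it called Dkk2 in place of Dkk3. All 10 libraries gave 3, 2 and 2 for COLD in the 3 ASC classes, where 4041, 1249 and 908 genes were called over all. In ASC2-like cells Sfrp1 and Sfrp4 were called and Dkk2 was lost (-1.06, adjusted p = 0.0621, edgeR). Leaving out shared barcodes gave 0 for ASC3-like COLD, where 2 genes were called over all. Thinning gave 0 for both response differences in COLD, with 790 and 388 genes called over all. Their sizes did not shrink (Sfrp1 -1.06, adjusted p = 0.0514, and Dkk3 3.11, adjusted p = 0.108, edgeR). The cause of these changes was not tested. With the replicate block, ASC1-like gave 2 for COLD and 2 for CL, ASC2-like 1 for COLD against CL and VSMC-like 1 for CL, while the other counts kept the main value, and the block changed no other member's call.

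Leaving out 1 library changed the number of called members in most comparisons, and the number of genes called over all changed too. Each such fit leaves 1 library in a group. Its counts therefore cannot be read as a result about the members and are not given. Over 12 settings the Dkk2 log2 fold change in COLD ran from -2.11 to -1.06 in ASC2-like and -2.50 to -1.56 in ASC3-like cells, and that of Dkk3 in ASC1-like cells from 1.74 to 3.58. These were called in 7, 7 and 8 settings, and no member's called value changed sign. Some of the settings leave 1 library in a group. Dkk3 in ASC1-like cells rested on 2.98 and 3.92 counts in RT. Another correction for free RNA was not run.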
